A study of Capra hircus with 27 samples.

Results

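The 100 goat genes described here were the ones whose expression differed most between libraries of the same tissue and altitude in heart, lung and skeletal muscle alike. They were selected on the measured values themselves. Among genes whose ID begins with GOAT_ in the deposited table, 9600 of 17671 had a mean FPKM above 0.5 in each tissue and tissue means of log2(FPKM + 1) within 3 of each other. FPKM is the number of sequenced fragments scaled by transcript length and library size. For each of these 9600 genes and each tissue, the largest range of log2(FPKM + 1) within any altitude group of 3 libraries was taken, and the smallest of the 3 tissue ranges was the score. The 100 genes with the highest score are called members below. The table holds 22131 genes in all.

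The 27 libraries came from goats of 3 local populations. Animals from Ya'an lived at 600 m, those from Zhaotong at 2000 m and those from A'ba at 3000 m, and each altitude gave 3 libraries of heart, 3 of lung and 3 of skeletal muscle. All goats were about 3 years old per the labels, no treatment or engineered allele is given for any group, and the study describes its 600 m and 3000 m animals as unrelated adult females. Population and altitude coincide. A replicate number from 1 to 3 is part of every library's label, but no label says whether libraries of different tissues with an equal number are from one animal. The absolute depth of the libraries is unknown because the deposited values give no counts. Muscle libraries 1 and 2 at 600 m were close to identical. The robust SD of their log2 ratio over genes above 50 FPKM was 0.0849, against 0.193 to 0.471 in the other 26 pairs of one tissue and altitude, and they were counted as 1 sample in tests. In bulk tissue, fewer cells of a type and less RNA per cell cannot be told apart.

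In an outbred population the level of a transcript differs between individuals. Some of these differences are inherited and appear in every tissue of an animal, others follow the state of the whole animal and move many genes together, and others belong to a single tissue sample. A gene listed at exactly 0 FPKM can be silent, or its level may not have been estimated, and the deposited values do not separate these cases. The IDs of the members were not paired with gene symbols (0 of 22131 IDs matched the table of goat gene names used here), so no member is given a name, a position or a sequence, and tissue marker genes could not be checked. Of the members, 56 had IDs with the prefix ENSBTAP and 44 with the prefix ENSP. An ID ending in -D and a number, whose meaning is not stated in the files, was carried by 8 members (8%) and by 1.98% of the 9600 genes that passed the filters.

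The scores ran from 1.55 to 4.69, with a median of 1.93, whereas the median over the 9600 genes was 0.433. Because the score chose the members, these values are a description. The last member, GOAT_ENSP00000252951-D2, scored 1.548, and the first gene outside, GOAT_ENSBTAP00000039119, scored 1.543, so the boundary fell in a continuous distribution. In GOAT_ENSP00000252951-D2 the boundary was set by heart (0 to 1.92 FPKM at 600 m), while lung at 600 m read 138, 0 and 0.723 FPKM in libraries 1, 2 and 3. The median of the members' widest ranges was 2.91 in heart, 2.81 in lung and 2.15 in muscle on the log2 scale. Their mean FPKM over all libraries had a median of 10.8, beside 10.1 over the 9600 genes, and reached 652.

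**Figure D1:**
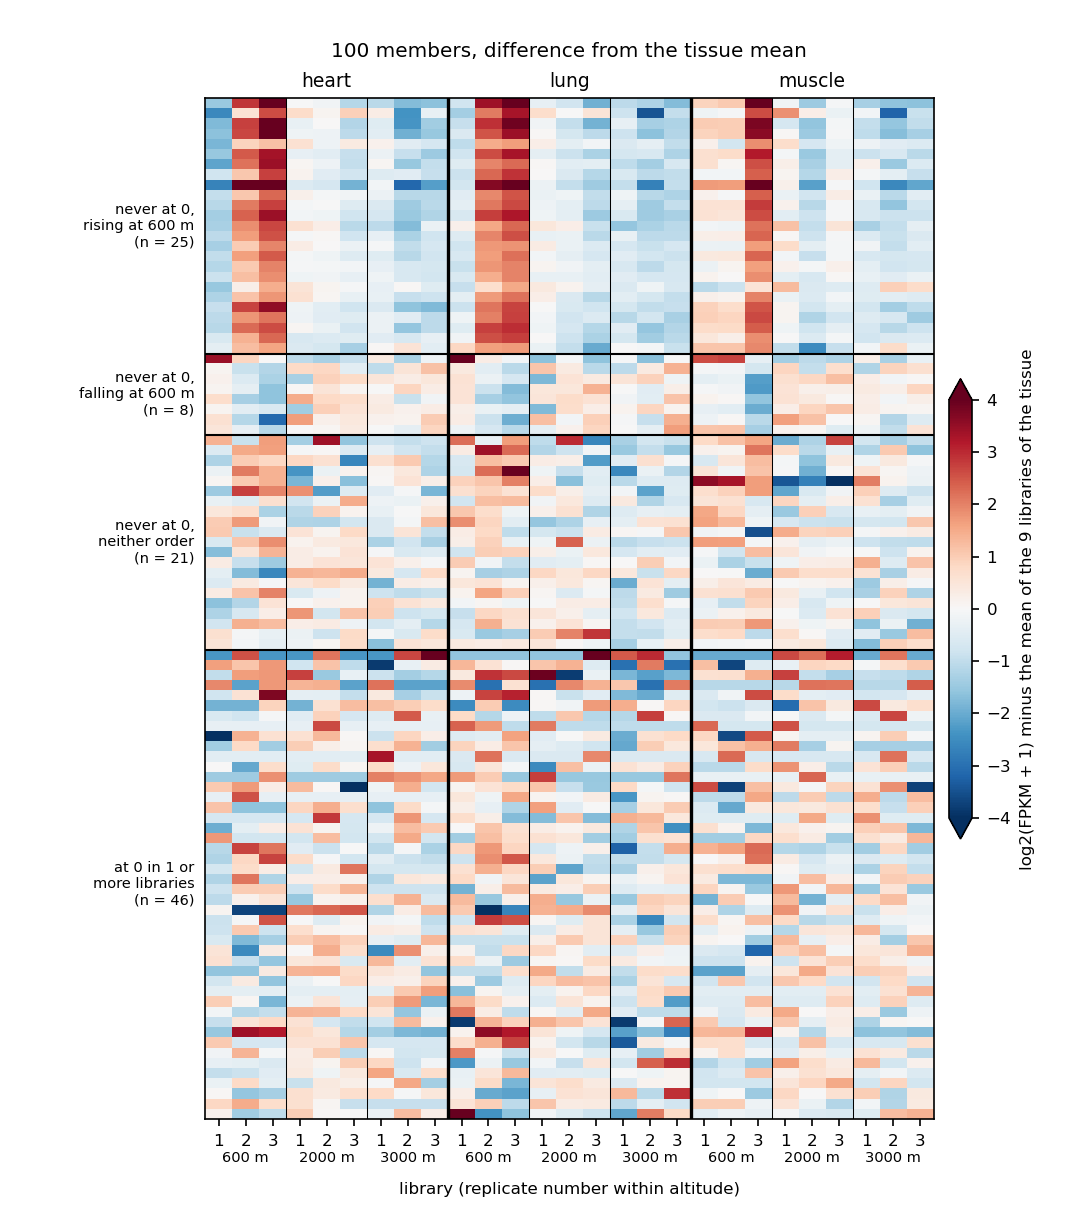
Heat map of log2(FPKM + 1) minus the mean of the 9 libraries of the tissue for the 100 members (rows) in the 27 libraries (columns, by tissue, altitude and replicate number), with colours saturating at 4 in either direction. Rows are split into members with no library at 0 FPKM (25 in rising order at 600 m, 8 in falling order and 21 in neither) and the 46 members listed at 0 in at least 1 library. The upper block repeats 1 pattern at 600 m, and the lowest block is a mosaic.

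The members fell into 2 classes, a split made after the values were seen. In 46 members at least 1 library was listed at exactly 0, compared with 168 (1.75%) of the 9600 genes. A 0 beside a higher level widens the range that the rule ranked, so this difference follows in part from the choice of members. The other 54 members were above 0 in all 27 libraries. The classes differed in level. The median of the mean FPKM was 5.02 in the members listed at 0 and 19.8 in those never at 0, on either side of the 10.1 over the 9600 genes. The 46 members were at 0 in a single library in 8 cases, in 2 to 4 libraries in 14, in 5 to 9 in 14 and in 10 or more in 10, up to 22 libraries. Of their 1242 values, 298 (24.0%) were 0, 17.6% lay above 0 and below 2 FPKM, and 58.5% were at 2 FPKM or higher. In 15 of the 46 members the lowest value above 0 was already at 2 FPKM or more, so that no low level lay between the states. Zeros occurred in every library, from 4 members in heart 2000 m library 2 to 19 members in muscle 600 m library 2. Lung libraries held 5 to 12 of them.

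A library was called off for a gene below 0.5 FPKM, the threshold for expression in the study, and on at 2 FPKM or more. A member was on/off in a tissue when 1 altitude group held a library of each kind. By this measure heart had 42 on/off members, lung 33 and muscle 39. Over the 9600 genes the shares were 1.09%, 0.927% and 1.22%. The members on/off in all 3 tissues numbered 22, and all 22 were listed at 0 somewhere, while 15 were on/off in 2 tissues, 18 in 1 tissue and 45 in none. As the rule asked for a wide range in every tissue, these counts follow in part from the choice of members. Genes with on/off states and genes that moved over a wide range without them were therefore both selected. The 45 members on/off in no tissue were all never at 0. An on/off state did not require a listed 0, since 3 members on/off in 2 tissues and 6 in 1 tissue were never at 0.

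Of the 5 highest-scoring members, 3 were on/off in all 3 tissues without an order of libraries that all 3 tissues shared. GOAT_ENSP00000414669 (rank 2) was listed at 0 in 16 libraries, and its lowest value above 0 was 15.4 FPKM. In heart it read 0, 28.3 and 0 FPKM at 600 m, 0, 21.1 and 0 at 2000 m, and 0, 31.1 and 97.3 at 3000 m. In lung it was 0 in all 3 libraries at 600 m, 0, 0 and 48.9 at 2000 m, and 15.4, 22.9 and 0 at 3000 m. In muscle it was 0 throughout 600 m, 24.4, 17.9 and 35.2 at 2000 m, and 0, 17.1 and 0 at 3000 m. Library 2 at 3000 m was on in all 3 tissues, but at 2000 m heart was on only in library 2, lung only in library 3 and muscle in every library.

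GOAT_ENSP00000327344 (rank 5) was at 0 in 13 libraries and otherwise between 8.51 and 32.9 FPKM. At 600 m it read 15.99, 0 and 13.8 FPKM in heart and 28.6, 0 and 11.1 in lung, with the same library off in both, while muscle was 0 in all 3. At 2000 m it read 10.6, 10.9 and 0 in heart, 0, 28.9 and 19.8 in lung, and muscle gave 0, 8.87 and 8.51. At 3000 m it read 18.9, 0 and 0 in heart, 15.8, 0 and 32.9 in lung, and muscle gave 0, 0 and 10.7. Lung and muscle were thus on in the same 2000 m libraries, and heart in a different pair. Between lung and muscle, Pearson's r of the deviations from the 2000 m and 3000 m means was 0.82. It was -0.49 between heart and muscle, and 0.31 between heart and lung over all altitudes.

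GOAT_ENSBTAP00000034833 (rank 3) was the reverse, on in most libraries and at 0 in 4. Heart lay between 6.07 and 46.1 FPKM apart from 3000 m library 1, which was 0. Lung lay between 4.47 and 32.0 FPKM apart from 3000 m libraries 1 and 3, which were both 0. Muscle lay between 7.87 and 27.8 FPKM apart from 600 m library 2, which was 0. Library 1 at 3000 m was therefore off in heart and lung and on in muscle, at 10.95 FPKM.

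**Figure D2:**
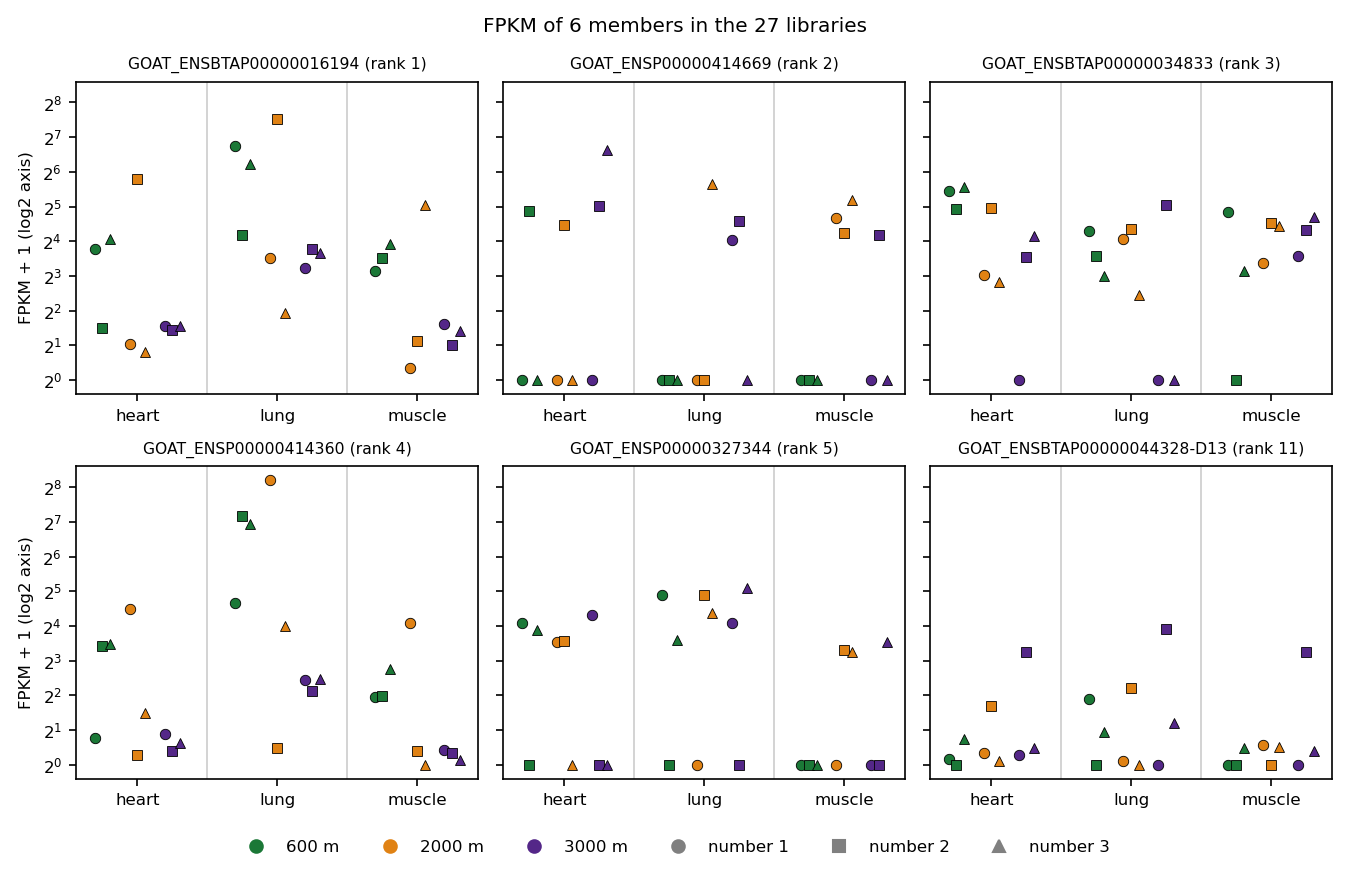
FPKM + 1 on a log2 axis for 6 members in the 27 libraries, by tissue, with altitude as colour and replicate number as symbol, so that a gene listed at 0 sits at 1. GOAT_ENSP00000414669 and GOAT_ENSP00000327344 switch between 0 and more than 8 FPKM without intermediate values, and GOAT_ENSBTAP00000044328-D13 is highest in 3000 m library 2 in each tissue.

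The near-identical muscle libraries 1 and 2 at 600 m gave a measure of such flips in a pair that otherwise hardly differed. Over the 54 members never at 0, the median absolute log2 difference of this pair was 0.0992, compared with 0.289 to 2.82 in the other 26 pairs. Nevertheless 8 members were off in one of the libraries and on in the other, all 8 of them listed at 0. In the other 26 pairs 5 to 20 members flipped, with a median of 10.5. GOAT_ENSBTAP00000034833 read 27.8 FPKM in library 1 and 0 in library 2. The largest difference was in GOAT_ENSBTAP00000044813 (named for this after its values were seen), with 80.5 FPKM against 0. The flips went both ways, with 5 of the 8 members at 0 in library 2 and 3 at 0 in library 1. These 8 members show on/off states between libraries that agreed closely in other genes, and the part of the estimation of FPKM in them was not tested.

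Whether the tissues agreed was first asked of the states. Where a member was on/off in the same altitude group of heart and lung, and both libraries of a pair were on or off, heart and lung libraries with the same number were in the same state in 39 of 63 cases (61.9%) and libraries with different numbers in 59 of 126 (46.8%). With muscle, at 2000 m and 3000 m, the shares were 26 of 38 (68.4%) and 31 of 70 (44.3%) for heart, and for lung 26 of 36 (72.2%) and 28 of 70 (40.0%). Same-numbered libraries thus shared a state more often in each pair of tissues, though far from always. Within a group, more matches between equal numbers leave fewer between different numbers, so the shares are not independent. Several cases come from the same member and the same library, so no test was made.

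Agreement in level was then measured for each member as Pearson's r between heart and lung deviations from the altitude means over the 9 same-numbered libraries. The rule used the size of the range in each tissue and not which library was high. Genes with a wide spread in both tissues can still give a higher r than genes with a narrow one. The values of members and of the 9600 genes are therefore not a comparison of like with like. An r above 0 was found in 79 members and in 77.9% of the 9600 genes. The median r over the members was 0.69, compared with 0.37 over the 9600 genes, and 43 members had an r above 0.8, compared with 9.02% of these genes. In the 54 members never at 0 the median was 0.91 and 36 exceeded 0.8. In the 46 members listed at 0 the median was 0.33 and 7 exceeded 0.8. Between heart and muscle, over the 6 libraries of 2000 m and 3000 m, the median was 0.28 for the members and 0.16 for the 9600 genes, and between lung and muscle 0.33 and -0.04. The wide gap between the classes in heart and lung was not seen with muscle. Heart against muscle gave medians of 0.32 (never at 0) and 0.27 (listed at 0). Lung against muscle gave 0.26 and 0.41, in the other order. At 3000 m alone, same-numbered heart and muscle correlations over members were higher in the class never at 0, as given below. Those of lung and muscle were higher in libraries 1 and 2 (0.55 and 0.57, beside 0.25 and 0.39). In library 3 they were not (0.40 beside 0.43). The 9 or 6 points of a gene share altitude means and libraries, so these values are descriptions.

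The same question was tested with limma, with the replicate number within altitude as a term shared by a pair of tissues. In heart and lung, 44 of 100 members were called at an adjusted p of 0.05 or less (limma F test, Benjamini-Hochberg over 11956 genes). Over all genes tested, 272 were called (2.28%). Genes with a wide spread give this test more to detect than genes with a narrow one, so the shares are not a comparison of like with like. The calls held 38 of the 54 members never at 0 and 6 of the 46 listed at 0. Among the 24 members that were on/off in both heart and lung, 3 were called. In heart and muscle 1 of 98 members tested was called, with 3 of 11519 genes in all (0.026%), and in lung and muscle 1 of 99, with 3 of 11506 (0.0261%). At an unadjusted p under 0.05, 39 members passed in each of these fits, beside 960 and 521 of all genes. These fits pooled 2000 m, where the numbers of muscle libraries did not match those of heart or lung over all genes, with 3000 m, where they did. With 3000 m alone (added after the data were seen), heart and muscle gave 3 of 85 members and 17 of 11361 genes (0.15%). Lung and muscle gave 0 of 88 members and 2 of 11465 genes (0.0174%). In that fit 34 of these members had an unadjusted p under 0.05 (limma), beside 1118 of all genes (9.75%).

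**Figure D3:**
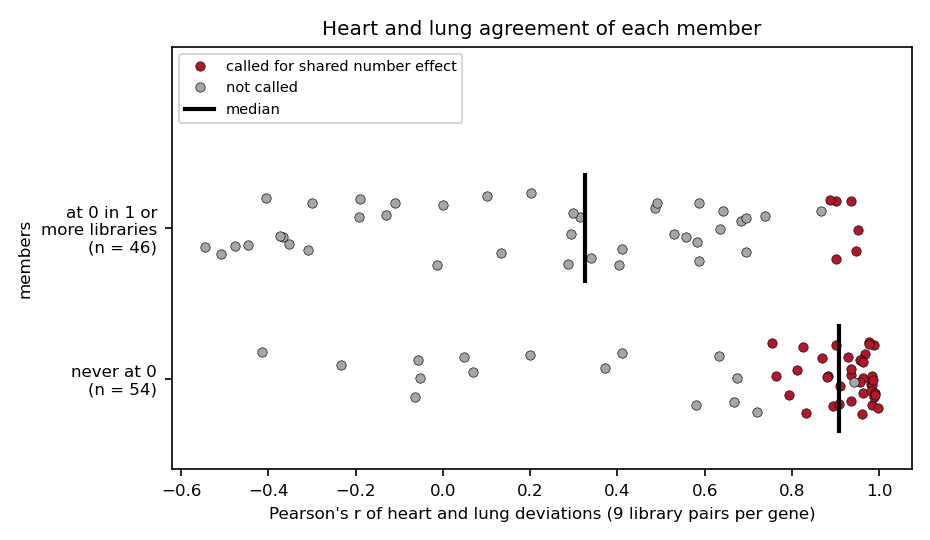
Pearson's r between heart and lung deviations from the altitude means for each member (x axis, 9 same-numbered library pairs per gene), split by whether the member was ever listed at 0 (rows, points scattered vertically for visibility). Red points are the 44 members called by limma for a shared effect of replicate number, 38 of them never at 0, and black lines are the medians of 0.91 and 0.33.

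The heart and lung calls rested largely on the 600 m libraries, over all genes as well as in the members. Without 600 m library 1 in both tissues, 13 members were called, with 0.509% of all genes (2.28% with every library). With the 2000 m and 3000 m libraries alone 9 of 99 members were called (0.307% of all genes). The 600 m libraries alone gave 38 of 92 (1.57%). Leaving out any other number gave 36 to 44 members (1.34% to 2.86% of all genes). Without the variance moderation of limma the number of members was 18 (0.602% of all genes).

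The highest-scoring member agreed closely in heart and lung. GOAT_ENSBTAP00000016194 (rank 1) read 1.04, 53.9 and 0.738 FPKM in heart and 10.5, 182 and 2.83 in lung at 2000 m. Library 2 stood high in both tissues by a wide margin. In muscle at 2000 m it read 0.277, 1.16 and 32.0, so that library 3 was the high one. At 600 m heart read 12.7, 1.83 and 15.6 and lung 107, 17.3 and 73.6, with library 2 low in both, and muscle read 7.74, 10.5 and 14.2. At 3000 m all 9 libraries were close within their tissue, at 1.70 to 1.97 in heart, 8.41 to 12.8 in lung and 1.01 to 2.07 in muscle. Its r between heart and lung was 0.96 (limma F test, adjusted p = 8.52e-05), and the call was kept under all 15 alternatives (adjusted p 5.79e-05 to 0.0253).

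GOAT_ENSP00000414360 (rank 4) was called in heart and lung (limma F test, adjusted p = 0.0172) and was the only member called in heart and muscle (adjusted p = 0.0428). At 2000 m it read 21.5, 0.202 and 1.78 FPKM in heart, 292, 0.390 and 15.1 in lung, and muscle gave 15.9, 0.319 and 0, so library 1 was highest in each tissue. At 600 m library 1 was the lowest, at 0.715, 9.73 and 10.2 in heart, 24.3, 144 and 121 in lung, and muscle gave 2.87, 2.91 and 5.79. At 3000 m the values were 0.317 to 0.866 in heart, 3.33 to 4.55 in lung and 0.101 to 0.349 in muscle. The heart and lung call was lost in 3 of 15 alternatives (adjusted p up to 0.13) and the heart and muscle call in 5 of the 10 in which it was tested (up to 0.55).

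GOAT_ENSBTAP00000044328-D13 (rank 11) had the smallest heart and lung p among the members on/off in both tissues (limma F test, adjusted p = 0.00671). At 3000 m it read 0.213, 8.55 and 0.406 FPKM in heart, 0, 14.1 and 1.30 in lung, and muscle gave 0, 8.60 and 0.322. At 2000 m library 2 was again the highest in heart (0.271, 2.24 and 0.0871) and in lung (0.0785, 3.61 and 0), but in muscle it was 0, beside 0.484 and 0.418. At 600 m no library exceeded 2.71 FPKM. The call was lost in 1 of 13 alternatives, without moderation (adjusted p = 0.114).

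The largest p among the members on/off in both tissues belonged to GOAT_ENSP00000414669, given above (limma F test, adjusted p = 0.846, r = -0.45), and to GOAT_ENSBTAP00000037476 (adjusted p = 0.831, r = -0.51). The latter was listed at 0 in 18 libraries. Heart was on in 600 m library 3 (8.50 FPKM) and in all 3000 m libraries (9.80, 8.27 and 6.93). Lung was on in 600 m libraries 1 and 2 (8.36 and 4.86), in 2000 m library 1 (18.8) and in 3000 m library 3 (11.8), and muscle in 2000 m library 2 alone (5.09). Only 3000 m library 3 was on in both heart and lung. The member called in lung and muscle, GOAT_ENSBTAP00000053099, was also mostly off. Among the 12 lung and muscle libraries of the fit it read 7.62 and 8.37 FPKM in library 1 at 2000 m and 0 in the rest (limma F test, adjusted p = 0.00226), and in heart the only value above 0 was 6.86, in 2000 m library 2. At 600 m, outside the fit, it read 9.46, 5.596 and 0 in lung and 7.01, 0 and 0 in muscle, where libraries 1 and 2 counted as 1 sample. The lung and muscle call was lost in 3 of the 10 alternatives in which it was tested, with a pseudocount of 0.1 (adjusted p = 0.278), quantile normalization (0.135) and all 3 altitudes (0.304).

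Members with high expression showed both kinds of behaviour. GOAT_ENSBTAP00000027844 (mean 652 FPKM, the highest of all members) read 134, 948 and 1236 FPKM in heart, 734, 3287 and 5441 in lung, and muscle gave 224, 212 and 728 at 600 m. Its values at 2000 m and 3000 m were 133 to 239.7 in heart, 330 to 762 in lung and 42.4 to 125 in muscle. It was called in heart and lung (limma F test, adjusted p = 0.000459), but not without 600 m library 1 (0.243). GOAT_ENSP00000408907-D2, the second most expressed, read 92.3, 306 and 516 in heart, 208, 336 and 142 in lung, and muscle gave 1248, 1206 and 365 at 600 m, so that library 3 was highest in heart and lowest in lung and muscle. In lung its 2000 m library 2 stood at 907, beside 156 and 148, while heart (155 to 189.9) and muscle (305 to 439) did not show it. It was not called in heart and lung (adjusted p = 0.56, r = -0.06).

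How the numbers corresponded across tissues was read from the correlation, over members, of the deviations from the group means. Members share libraries, so these are descriptions. The deviations of a group sum to 0 in each gene, so high same-numbered correlations push the differently numbered ones down. The sign of the latter is therefore no separate result. In the 54 members never at 0, same-numbered heart and lung libraries correlated at 0.66 to 0.90 at 600 m, 0.54 to 0.65 at 2000 m and 0.45 to 0.61 at 3000 m. Differently numbered ones lay between -0.88 and 0.67, with the positive values at 600 m between libraries 2 and 3, and all were below 0 at 2000 m and 3000 m. In the 46 members listed at 0, same-numbered correlations were 0.10 to 0.54 apart from library 3 at 3000 m, which gave -0.29. Of the 9, only that of library 2 at 3000 m was as high as in the members never at 0 (0.54 and 0.52).

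In the members never at 0, muscle followed the numbers of heart and lung at 3000 m but not at the other altitudes. At 3000 m they gave same-numbered correlations of 0.59 to 0.66 with heart and 0.40 to 0.57 with lung. Every differently numbered one was negative, which deviations that sum to 0 favour. At 2000 m same-numbered correlations were -0.49 to 0.26 with heart and -0.64 to 0.30 with lung. There, library 2 of heart and lung correlated best with muscle library 3 (0.48 and 0.66), and library 3 with muscle library 2 (0.42 and 0.39). At 600 m, muscle libraries 1 and 2 both correlated with library 1 of heart (0.83 and 0.82) and lung (0.83 and 0.81), and muscle library 3 with library 3 (0.86 and 0.85). Heart and lung library 2 at 600 m was positively correlated with muscle library 3 alone (0.57 and 0.64). At 3000 m the members listed at 0 gave same-numbered correlations of 0.08 to 0.31 with heart and 0.25 to 0.43 with lung. They differed from the members never at 0 at 2000 m as well. There, same-numbered lung and muscle libraries correlated at 0.27 to 0.41, above every differently numbered pair (up to 0.19), while heart and muscle gave -0.14 to 0.16 beside -0.24 to 0.18. Over the 11956 genes tested in heart and lung the same-numbered correlations were 0.16 to 0.50. Over all genes tested with muscle they were 0.17 to 0.32 at 3000 m and -0.40 to 0.08 at 2000 m.

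**Figure D4:**
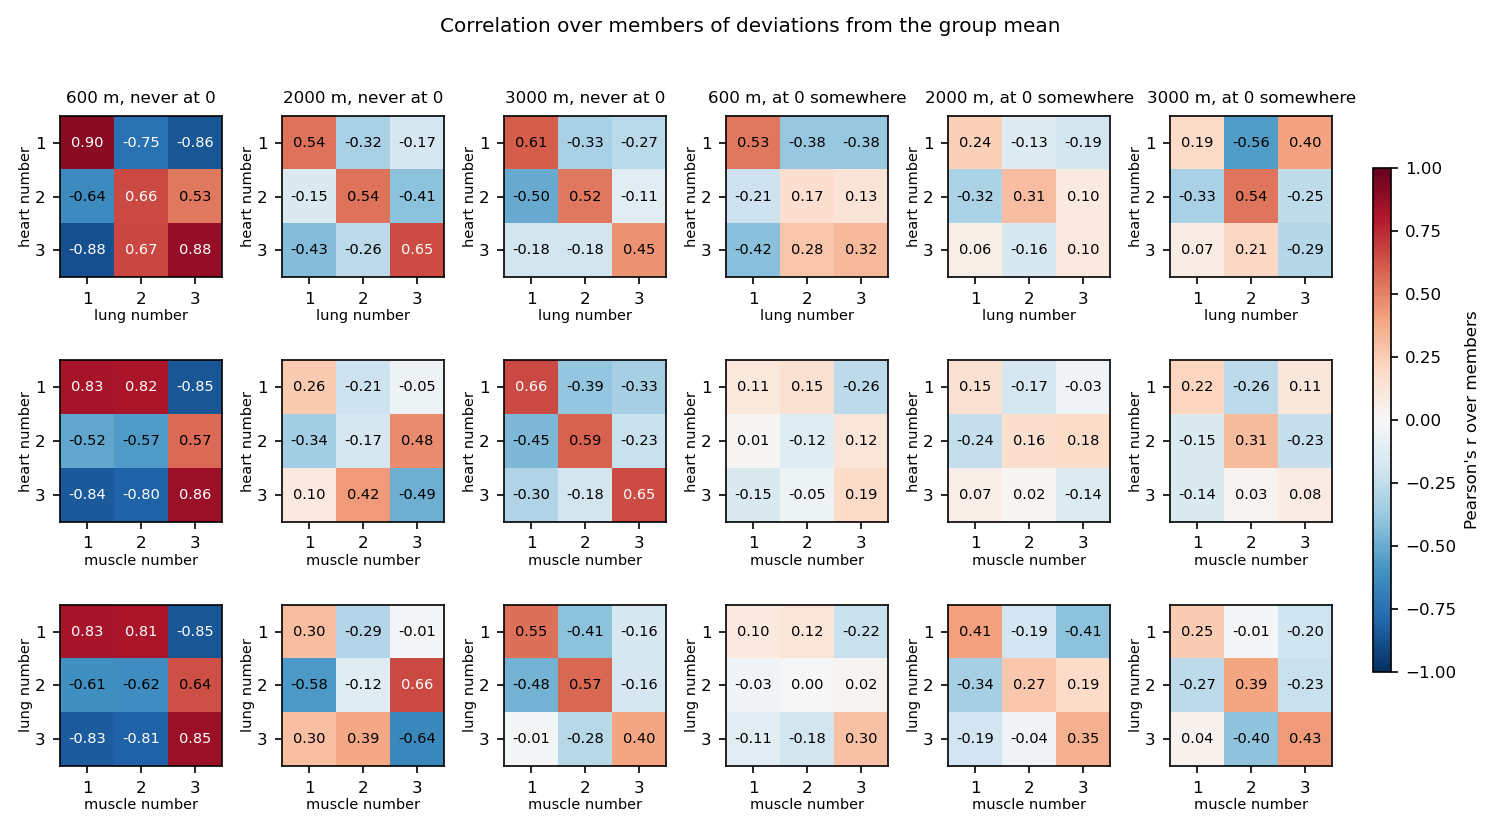
Pearson's r, over members, between deviations from the group mean of each library of one tissue (rows of a grid, replicate number) and each library of another (columns), for the 3 pairs of tissues and 3 altitudes. The left 3 columns hold the 54 members never at 0 and the right 3 the 46 members listed at 0. The diagonal is positive for heart and lung at every altitude on the left, and for muscle at 3000 m.

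The library that stood farthest apart was also compared. For each member and tissue this was the extreme library of the widest altitude group, with its direction. It was the same altitude, number and direction in heart and lung in 45 members, compared with 16.6% of the 9600 genes, in heart and muscle in 15 (8.52%) and in lung and muscle in 11 (6.54%). In muscle the widest group was 600 m in 50 members, and libraries 1 and 2 there were close to identical. The extreme library was then mostly library 3. Members with 600 m library 1 extreme in heart and lung could therefore hardly match muscle, which limits the counts with muscle. Of the 45, 38 were never at 0. All 3 tissues coincided in 5 members, compared with 1.61% of these genes. These 5 are GOAT_ENSP00000414360 and GOAT_ENSBTAP00000044328-D13, given above, and 3 members in which 3000 m library 1 was low, named because the count was 5.

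GOAT_ENSP00000361097 (rank 81) read 2.98 FPKM in heart, 4.21 in lung and 1.70 in muscle in 3000 m library 1. The other 8 libraries lay between 9.13 and 24.0 in heart and 14.9 and 29.7 in lung, and in muscle between 6.14 and 9.44, with no overlap. GOAT_ENSP00000386146 (rank 99) read 12.3, 23.6 and 11.9 FPKM in that library, and the others 31.9 to 68.5, 49.1 to 86.2 and 28.02 to 80.9. This library stood below every other in each tissue for both genes. GOAT_ENSP00000377384 (rank 42) was low there as well (1.68, 1.73 and 0.299), but other libraries were about as low, among them heart and lung 600 m library 3 (1.41 and 1.69).

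A recurring pattern was an order of the 600 m libraries. In 28 members the level rose from library 1 to 2 to 3 in heart and in lung, and library 3 was the highest in muscle, an arrangement that 10% of the 9600 genes had. In 8 members the order was the opposite, with library 3 lowest in muscle (2.01%). The numbers carry no order of their own, and this arrangement was found by looking at the values. Of the 28 members, 25 were never at 0, as were all 8 of the others. Heart and lung were called for a shared number effect in 25 of the 28 and 7 of the 8, which the arrangement itself favours, and in 12 of the remaining 64. At 2000 m, heart and lung shared library 3 as the lowest in 34 members (29.3% of the 9600 genes) and library 1 as the highest in 32 (17.2%). The 600 m group was the widest in all 3 tissues in 31 members (6.47% of the 9600 genes).

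In these 28 members the median heart FPKM was 2.13, 25.4 and 57.9 in 600 m libraries 1, 2 and 3. In lung it was 13.9, 88.1 and 130.4, and in muscle 5.09, 5.10 and 20.5. At 2000 m the medians were 3.80 to 6.89 in heart, 10.01 to 23.0 in lung and 1.62 to 4.62 in muscle, and at 3000 m 1.88 to 4.63, 9.68 to 13.4 and 1.13 to 2.11. By these medians, libraries 2 and 3 at 600 m stood apart from both higher altitudes in heart and lung, and muscle library 3 did so in muscle. Not every one of the 28 members did so. Their distance from 600 m library 1 follows from the choice of these members. On the log2(FPKM + 1) scale, library 3 exceeded library 1 by medians of 3.65 (heart), 3.02 (lung) and 1.998 (muscle).

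**Figure D5:**
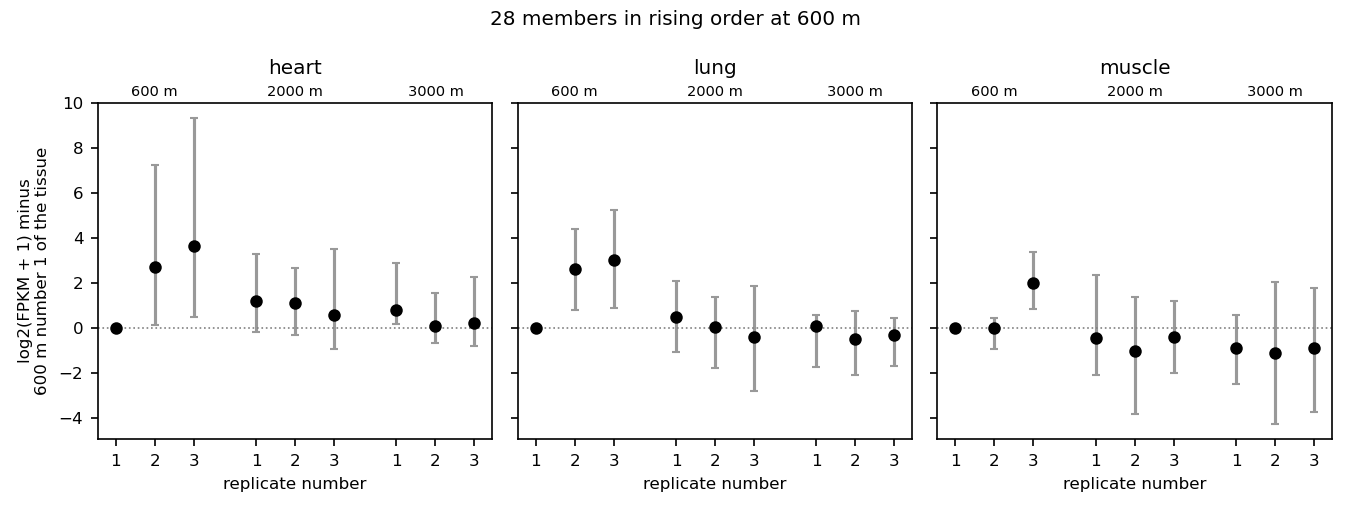
Difference in log2(FPKM + 1) from 600 m library 1 of the same tissue for the 28 members in rising order at 600 m, by library (x axis, replicate number within altitude). Points are medians over the 28 members and bars reach from the lowest to the highest member. The 600 m medians are 2.70 and 3.65 in heart libraries 2 and 3, 2.59 and 3.02 in lung and -0.0016 and 1.998 in muscle.

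Altitude was tested within each tissue, and nothing was read from the members' counts, since the rule chose them for the spread that is the error of this test. In heart 8 of 100 members differed between altitudes (limma F test, adjusted p at most 0.05), with 2330 of 12363 genes called (18.8%). In lung 1 member was called, with 39 of 13965 genes (0.279%), and in muscle 6, with 230 of 11920 (1.93%). No member was called in more than 1 tissue. The counts in heart and lung depended on 600 m library 1, over all genes as well as in the members. Without heart 600 m library 1 they were 45 members in heart, with 24.1% of all genes called. Without lung 600 m library 1 they were 41 members in lung, with 9.12% of all genes. This library set the widest range of many members, so the choice of members itself favours a rise without it. Without lung 600 m library 2 or library 3 no gene was called in lung (limma, 2400 and 2313 genes at an unadjusted p under 0.05).

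Among called members that fell in every tissue from 600 m to 3000 m, the largest smallest-tissue differences were in GOAT_ENSBTAP00000011146 and GOAT_ENSBTAP00000043123, both called in muscle (limma F test, adjusted p = 0.0222 and 0.0440) and not in heart (0.12 and 0.154) or lung (0.0539 and 0.0974). GOAT_ENSBTAP00000011146 read 7.36, 7.60 and 26.1 FPKM at 600 m, 2.67, 0.524 and 2.95 at 2000 m and 0.057, 0.106 and 0 at 3000 m in muscle. Its 600 m heart values of 0.398, 41.7 and 35.1 overlapped those at 2000 m and 3000 m (0.080 to 5.69) through library 1. GOAT_ENSBTAP00000043123 read 3.06, 3.13 and 11.9 in muscle at 600 m and 0.119 to 0.532 at 3000 m, without overlap. In heart its 600 m library 1 (1.00) lay within the 3000 m range of 0.462 to 2.64, while libraries 2 and 3 read 19.7 and 25.2. The muscle calls were lost in 4 and 8 of 13 alternatives (adjusted p up to 0.0826 and 0.165).

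In the other direction, GOAT_ENSBTAP00000026146 and GOAT_ENSBTAP00000009636 were called in heart (limma F test, adjusted p = 0.0158 and 0.0385) and not in lung (0.146 and 0.251) or muscle (0.203 and 0.378). GOAT_ENSBTAP00000026146 read 10.5, 3.51 and 1.498 FPKM at 600 m, 38.5, 36.5 and 40.6 at 2000 m and 18.6, 8.36 and 24.8 at 3000 m in heart. The 600 m and 3000 m groups overlapped by 1 library, and the log2 difference of 3000 m from 600 m was 1.73 with an SE of 0.52. Library 2 at 3000 m was the lowest of its group in all 3 tissues, at 8.36 in heart, 6.22 in lung and 6.80 in muscle, beside 17.0 to 27.7 in the others. GOAT_ENSBTAP00000009636 read 2.02, 0 and 0.165 in heart at 600 m and 1.83 to 4.17 at the higher altitudes, and its call was lost in 10 of 13 alternatives (adjusted p up to 0.128).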

How the data were processed

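RNA sequencing libraries of 27 goat tissue samples were analysed. The authors mapped reads with TopHat 2.0.11 and estimated FPKM with Cufflinks 2.2.1, in the methods for the 600 m and 3000 m animals, and the deposited values are log2(FPKM + 1), 1 column per library. Steps for the 2000 m libraries are not given in the sources used here. Values were converted back to FPKM for display. Counts were not used here, so the depth behind a value is unknown.

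Groups and replicate numbers were taken from the labels. No label states that replicates came from separate cultures or days. The p-values of altitude measure the spread between these samples. Those of agreement set the effect of the replicate number against what differs between the paired tissues of a number. The members, lists and tests were chosen with earlier results of these data known. The planned gene lists and tissue markers could not be used, since 0 of 22131 IDs matched a name. IDs were named by a rule: the 5 largest scores, ranks 100 and 101, the extremes of the heart and lung p among members on/off in both tissues, 2 members on/off in all tissues, the 2 highest mean FPKM and at most 2 members higher and 2 lower at 3000 m.

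Agreement was tested with limma (lmFit, eBayes with trend and robust options) as an F test of replicate number within altitude, with tissue by altitude means, on the log2 values of genes whose mean FPKM exceeded 0.5 in both tissues. The fit had 18 libraries for heart and lung. With muscle it had 12 (2000 m and 3000 m), since 600 m muscle libraries 1 and 2 counted as 1 sample. Same-numbered heart and lung libraries deviated together at each altitude (r over 11956 genes 0.16 to 0.50), whereas muscle, over all genes, did so at 3000 m alone, and no numbers were reassigned. Altitude was tested by an F test (eBayes with trend) in each tissue, with 8 samples in muscle. Cuffdiff, used in the study, needs files not used here. P-values were adjusted by Benjamini-Hochberg over all genes tested, with a threshold of 0.05. The fits were tested on simulated data. R 4.3.3, limma 3.58.1, Python 3.11.15, NumPy 2.4.6, pandas 2.3.3 and matplotlib 3.10.9 were used.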

Additional observations from a re-analysis of the deposited data

How the results depend on the processing

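The choice of members depended on the scale. A ranking on log2(FPKM + 0.1) kept 60 of the 100 members and one with no limit on the tissue means 62, while quantile normalization, the SD in place of the range, muscle ranges from 2000 m and 3000 m alone and a mean FPKM above 1 kept 71 to 94. With off below 0.1 and on from 1 FPKM, 19 members were on/off in all 3 tissues.

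The cause of the following changes was not tested. Of heart and lung agreement, members called were 18 without moderation and 9 with 2000 m and 3000 m alone (the latter chosen after seeing the data), and genes called were 159 without a filter, 72 without moderation, 37 with 2000 m and 3000 m alone and 180 with 600 m alone. Leaving out 1 number at 1 altitude gave 13 to 44 members and 61 to 342 genes. Of heart and muscle agreement, members called were 3 with 3000 m alone. They were 0 with a pseudocount of 0.1, without a filter, without moderation and with all 3 altitudes. Genes called were 1 with a pseudocount of 0.1, 3 without a filter, 1 with all 3 altitudes and 17 with 3000 m alone. Without moderation 0 genes were called (limma without eBayes, 879 at an unadjusted p under 0.05). Leaving out 1 number gave 0 to 3 members and 1 to 7 genes. Of lung and muscle agreement, members called were 0 with a pseudocount of 0.1, with quantile normalization, with all 3 altitudes and with 3000 m alone. Genes called were 1 with a pseudocount of 0.1, quantile normalization, no moderation and all 3 altitudes, and 2 with 3000 m alone. Leaving out 1 number gave 0 to 3 members and 1 to 5 genes.

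Of altitude, members called in heart were 5 without a filter (12.5% of all genes) and 5 with quantile normalization (17.7%). The main fit had 8 (18.8%). Leaving out a heart library gave 2 to 45 members and 867 to 2987 genes. In lung no member was called without a filter, and genes called were 11 without a filter and 116 with quantile normalization. Leaving out a lung library gave 0 to 41 members and 0 to 1273 genes, with 0 by limma without 600 m library 2 or 3 (2400 and 2313 at an unadjusted p under 0.05). In muscle 0 members were called without a filter, 2 with quantile normalization and 16 with 600 m libraries 1 and 2 as separate samples, and genes called were 43, 146 and 1144. Leaving out a muscle sample gave 1 to 32 members and 46 to 701 genes. A fit that left 1 sample at 600 m assumed that it varied like the other groups.

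Numbers did not pair the altitudes. Same-numbered libraries of different altitudes deviated together at an r above 0.1 in 1 of 9 cases in heart, 1 of 9 in lung and 0 of 9 in muscle. With the replicate number as a block, altitude calls were 0 members and 3 genes in lung, 17 members and 547 genes in muscle and 9 members and 1628 genes in heart.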

Other observations

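Listed zeros in genes of clear expression were rare. Of the 9600 genes that passed the filters, 6511 had a median FPKM above 5, and 26 of these were listed at 0 in at least 1 library. Members made up 10 of the 26. A 0 beside such a level widens the range that the rule ranked, so this share follows in part from the choice of members. Of the 46 members listed at 0, 6 had no value between 0 and 5 FPKM in any library. They included GOAT_ENSP00000384411 (rank 75, picked out after its values were seen), which was at 0 in 2 libraries and otherwise at 12.5 FPKM or more.

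The odd library was the high one in muscle in 64 members, compared with 52.1% of the 9600 genes, in heart in 36 (43.5%) and in lung in 29 (38.5%). In muscle it was high in 29 of 46 members listed at 0 and in 35 of 54 never at 0. In heart it was so in 25 and 11 and in lung in 20 and 9. The widest muscle group was 600 m in 50 members, and libraries 1 and 2 there were close to identical. Library 3 was then mostly the odd one, and it was highest in muscle by definition in the 28 members in rising order. The muscle count therefore rests in part on that library. Among the 54 members never at 0, library 3 at 600 m was the highest in all 3 tissues in 25 and the lowest in all 3 in 10, and library 2 at 3000 m was the lowest in all 3 in 17. Over the 9600 genes those shares were 14.5%, 5.5% and 4.58%.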
